A study of Mus musculus with 24 samples.

Results

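The effect of ONX-0914 on inflammatory macrophages was read from 8 of the 24 polyA RNA-seq libraries of the series: 4 of peritoneal macrophages given LPS, IFN-γ and ONX-0914 (M1_ONX), and 4 given LPS and IFN-γ alone (M1). The members were chosen by their labels and not by any measured value, and all genes that passed a filter on low counts were compared, 14692 of 54532 annotated features. Both groups carry the M1 stimulus, so the comparison shows the inhibitor on top of polarization, and the groups differ in the inhibitor alone as far as the labels say. The same contrast in unpolarized cells (M0_ONX against M0) and in IL-4-treated cells (M2_ONX against M2), with 4 libraries in each group, was used to ask where the effect in M1 cells differed. Each library came from 50000 cells pooled from 2 to 3 mice, and the 4 libraries of a group are independent replicates, per the labels. The sources used here do not give strain, age, sex, dose or time of treatment.

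LPS is a bacterial cell wall component sensed by Toll-like receptor 4, and together with the lymphocyte cytokine IFN-γ it drives macrophages to the inflammatory M1 state. The proteasome degrades ubiquitin-tagged proteins with a barrel-shaped 20S core capped by 19S regulatory particles. In immune cells and under interferon, the catalytic core subunits PSMB5, PSMB6 and PSMB7 are replaced by PSMB8, PSMB9 and PSMB10 to form the immunoproteasome. ONX-0914 is a small molecule that blocks the immunoproteasome and is selective for PSMB8 (LMP7). When proteasomes are blocked, cells are known to stabilize the transcription factors NRF1 (gene Nfe2l1), which drives proteasome subunit genes, NRF2 (gene Nfe2l2), which drives antioxidant genes, and HSF1, which drives heat shock genes. The title of the series names NRF1, NRF2 and p62 (gene Sqstm1) and the M1 state as its subjects.

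The 4 M1_ONX libraries held 18883077 to 22882972 counts and the 4 M1 libraries 18230924 to 20958871. One library stood apart. In M1 replicate 2, mitochondrial genes took 0.300% of the counts, against 1.07% to 1.14% in the other M1 libraries, and 13.1% fell on its 10 most counted genes, against 10.3% to 10.4%. Its genes of low GC content were low and those of high GC content were high (median log2 difference from the other M1 libraries -0.84 under 40% GC and 0.29 over 55% GC). The calls of M1_ONX against M1 and their counts by list were therefore also computed without it. Marker sums and counts by list of differences between states were computed with all libraries only. Differences between states were repeated without it only as total counts and for the genes singled out by size. Of the 187 genes that the naming rule selected, 183 were called with all libraries, and 182 of these were called in the same direction without M1 replicate 2. The exception was Ndufb8 (log2 change -0.27 with it and -0.11 without it), and Il6 was not called with it in the same test but was called without it. None of the 187 moved by more than 1.5 times.

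**Figure D1:**
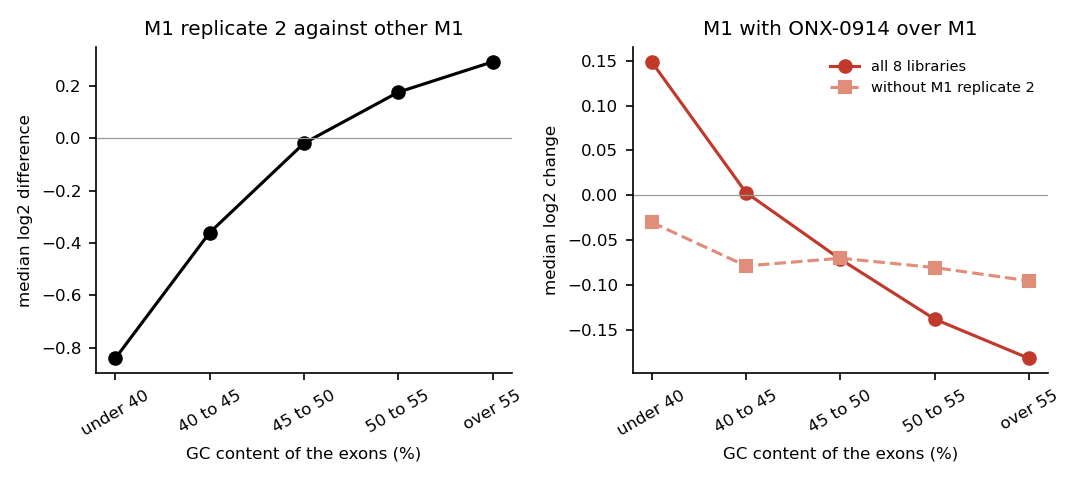
Left, the median log2 difference between M1 replicate 2 and the other 3 M1 libraries for genes grouped by exon GC content (5 groups on the x axis), which runs from -0.84 to 0.29. Right, the median log2 change of M1_ONX over M1 in the same groups, which runs from 0.15 to -0.18 with all 8 libraries and from -0.030 to -0.095 without M1 replicate 2.

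Across all genes, 2438 rose with the inhibitor (16.6% of those tested) and 4076 fell (27.7%), together 44.3%, at an adjusted p under 0.05 (edgeR quasi-likelihood test with Benjamini-Hochberg adjustment over all genes). Counts of list members below are to be read against these shares of all genes. At least 2-fold changes were fewer and nearly balanced, with 439 genes higher and 511 lower. The 4 M1_ONX libraries lay wholly above the 4 M1 libraries for 2036 genes (13.9%) and wholly below them for 3260 (22.2%). The split between rises and falls depended on the scaling. The median log2 change of all genes was -0.081 with TMM factors from all 24 libraries and 0.00042 with factors from the 8 libraries, and the share of calls that were rises was 37.4% and 50.1% (3164 higher and 3147 lower). Some small changes near this shift, and many counts that it moves, are therefore also given under the second, called the 8-library scaling. Others are given once, under the factors from all 24 libraries, and a value given once may still depend on the scaling. Levels below are TMM-scaled CPM, counts relative to the size of their library, in replicates 1 to 4. Changes are log2 of M1_ONX over M1 with their standard error. The p-values rest on the spread between libraries within groups, estimated over all 24 libraries with M1 replicate 2 included. This spread does not separate differences between pools of mice from other differences between libraries.

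The largest rises were in genes with low levels in M1 cells. Uchl1 (ENSMUSG00000029223, chromosome 5, 66676091 to 66687234, plus strand, GRCm38), which encodes a deubiquitinase best known from neurons, had 110.5, 94.9, 97.0 and 100.5 CPM in M1_ONX, against 3.25, 3.74, 2.54 and 2.27 CPM in M1. Every M1_ONX library was far above every M1 library, and the log2 change was 5.10 ± 0.11 (adjusted p = 1.31e-22). Nol3 (ENSMUSG00000014776, chromosome 8, 105276140 to 105281939, plus strand), which encodes ARC, an inhibitor of apoptosis, had 18.6, 16.2, 16.6 and 13.1 CPM in M1_ONX, against 0.509, 0.415, 0.404 and 0.252 CPM in M1. Its groups were also far apart (log2 change 5.33 ± 0.22, adjusted p = 1.42e-16). Afp (ENSMUSG00000054932, chromosome 5, 90490737 to 90508907, plus strand), the gene of the fetal serum protein alpha-fetoprotein, had 7.55, 7.44, 6.23 and 8.0 CPM in M1_ONX, against 0.446, 0.208, 0.0578 and 0.441 CPM in M1. The M1 values of Afp rest on few counts and varied more than those of M1_ONX (log2 change 4.65 ± 0.24, adjusted p = 1.39e-14).

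Next in size came a C-type lectin, a leukaemia fusion partner and a lipoprotein receptor among others. Clec2i, a lectin-like surface protein of the Clr family, had 33.5, 28.9, 29.7 and 33.0 CPM in M1_ONX, against 2.74, 0.969, 1.67 and 2.52 CPM in M1 (log2 change 3.97 ± 0.14, adjusted p = 2.59e-18). Mllt11, known as a fusion partner of MLL in leukaemia, had 122, 122, 112 and 125 CPM in M1_ONX, against 12.2, 9.76, 14.1 and 13 CPM in M1 (log2 change 3.29 ± 0.098, adjusted p = 1.97e-19). Lrp8, a receptor for reelin and apolipoprotein E, had 15.2, 15.2, 15.1 and 15.6 CPM in M1_ONX, against 1.97, 2.70, 3.29 and 2.14 CPM in M1. Its M1_ONX libraries were nearly identical, and the change was 2.59. The other large rises were Dnmt3l (2.76), a cofactor of DNA methyltransferases, Me1 (2.53), cytosolic malic enzyme, Map1a (2.46), a microtubule-associated protein, Pir (2.36), the iron-binding nuclear protein pirin, Hspa1b (2.35), a stress-inducible HSP70, and Kcnq1ot1 (2.30), an imprinted noncoding RNA. Kcnq1ot1 is antisense to Kcnq1, and since the strand setting of the counting is not given, reads of the pair cannot be told apart.

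Among the largest falls were receptors, signalling adaptors and genes of glucose metabolism. Sla (ENSMUSG00000022372, chromosome 15, 66780819 to 66831829, minus strand), which encodes the adaptor SLAP that dampens antigen and growth factor receptors, had 2.55, 3.0, 2.49 and 2.49 CPM in M1_ONX, against 21.5, 22.8, 15.5 and 25.0 CPM in M1. The 4 M1_ONX values were close together and far below the M1 values (log2 change -3.00 ± 0.13, adjusted p = 3.58e-16). Fcgr1, the high-affinity IgG receptor CD64, had 56.8, 74.4, 71.5 and 56.8 CPM in M1_ONX, against 242, 345, 272 and 269.9 CPM in M1, a clear separation (log2 change -2.12 ± 0.13, adjusted p = 2.43e-13). Slc16a3, the lactate exporter MCT4, had 37.3, 40.2, 39.9 and 30.7 CPM in M1_ONX, against 149.8, 188, 166 and 135 CPM in M1 (log2 change -2.11 ± 0.095, adjusted p = 6.17e-16). Pdk1, a kinase that holds pyruvate back from mitochondrial oxidation, had 6.50, 6.54, 7.0 and 8.77 CPM in M1_ONX, against 27.4, 27.1, 30.7 and 27.0 CPM in M1, and its groups were separated by a 3-fold gap (log2 change -1.96 ± 0.089, adjusted p = 6.44e-16).

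Other large falls were Lad1 (-2.40), the basement membrane protein ladinin, Clec4a1 (-2.37), a lectin of the dendritic cell immunoreceptor family, Fpr1 (-2.33), a receptor for bacterial formyl peptides, Kcnn4 (-2.24), a calcium-activated potassium channel, and Rasgrp1 (-2.19), an activator of RAS. Spib (-1.92), an ETS transcription factor, and Pilrb1 (-1.90), an activating immunoglobulin-like receptor, completed the set together with Ighm (-2.10), the immunoglobulin heavy chain of B cells. Ighm had 2.50, 4.14, 3.85 and 2.13 CPM in M1_ONX, against 10.3, 13.6, 16.5 and 13.3 CPM in M1. Beside it, 10 of 11 tested B cell markers fell and none rose, and 10 fell under the 8-library scaling. When the 8 libraries were fitted alone 4 fell. That fit applied the count filter anew and tested 12983 genes, so its 4 falls are not out of the same 11 markers by design. The summed level of 14 B cell markers was 40.4 to 45.8 CPM in M1_ONX and 79.8 to 91.5 CPM in M1. The part of these cells in the results was not tested. Most of the summed level was Cd22, with a mean of 36.9 CPM in M1_ONX and 62.2 CPM in M1 (log2 change -0.75). In bulk samples fewer cells of a type and less RNA per cell cannot be told apart.

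**Figure D2:**
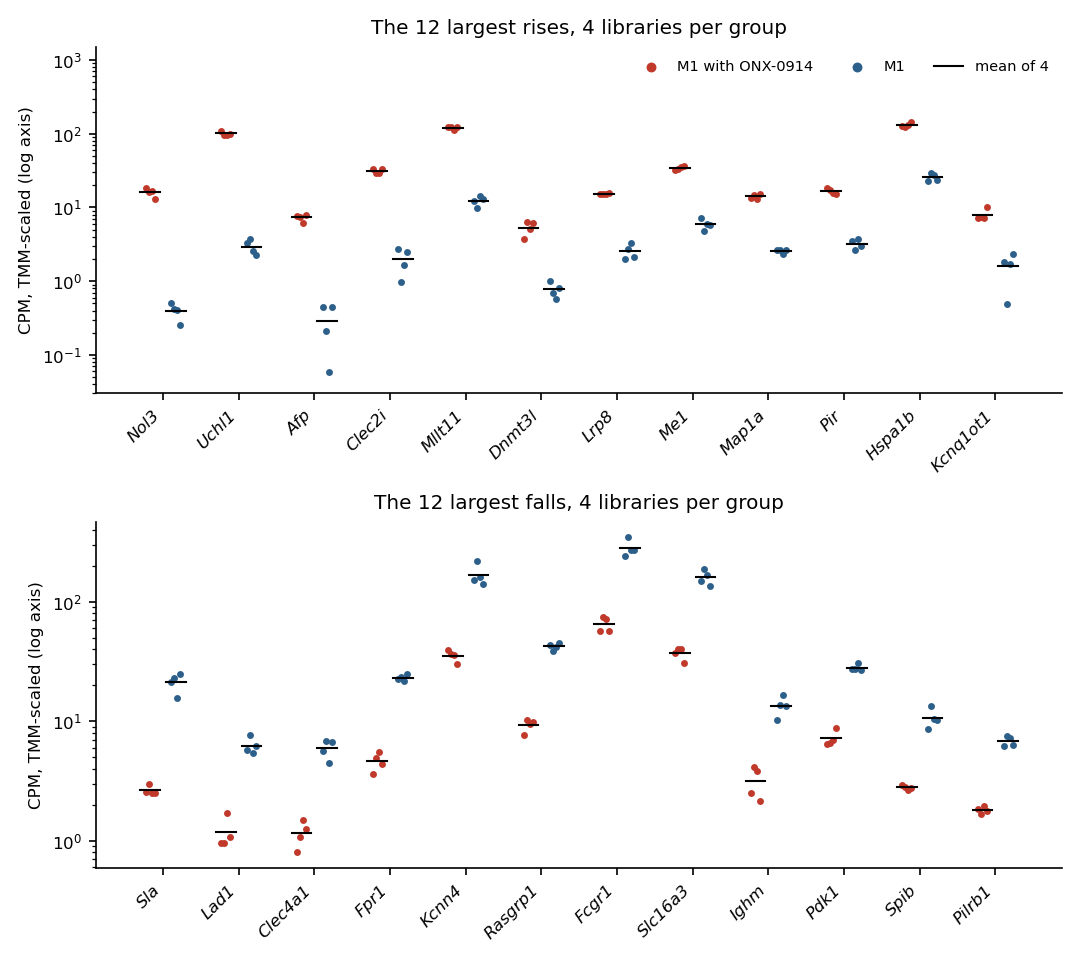
Levels (TMM-scaled CPM, log axis) of the 12 genes with the largest rises (top) and the 12 with the largest falls (bottom) that passed the naming rule, with M1_ONX left of M1 for each gene, 1 point per library and a line at the mean of 4. The naming rule requires groups that do not overlap, and Uchl1 sits at 94.9 to 110.5 CPM in M1_ONX and 2.27 to 3.74 CPM in M1.

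The constitutive proteasome rose nearly as a whole. All 14 genes of the 20S core rose, with a median log2 change of 0.89, and 17 of 18 genes of the 19S particle rose, with a median of 1.24, against -0.081 for all genes. These counts were 14 and 18 without M1 replicate 2. In the core, Psmb3, a structural beta subunit, rose most: it had 312, 286, 309 and 303 CPM in M1_ONX, against 98.0, 117, 94.5 and 101 CPM in M1 (log2 change 1.56 ± 0.064, adjusted p = 9.61e-17). Psma1, an alpha ring subunit, had 327, 312, 317 and 331 CPM in M1_ONX, against 143, 128, 129 and 133 CPM in M1 (log2 change 1.27 ± 0.047, adjusted p = 1.56e-17). Psmb2, another beta subunit, rose by 1.20 on the log2 scale, and no M1_ONX library of these 3 genes came near an M1 library.

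The catalytic subunits of the constitutive core rose to different extents. Psmb5 (ENSMUSG00000022193, chromosome 14, 54614119 to 54618022, minus strand), the chymotrypsin-like subunit whose place PSMB8 takes, had 311, 279, 284 and 285 CPM in M1_ONX, against 145, 193, 149.6 and 145 CPM in M1 (log2 change 0.87 ± 0.079, adjusted p = 7.69e-10). Psmb7, the trypsin-like subunit, had 249.8, 223, 211 and 222 CPM in M1_ONX, against 108, 121, 102 and 99.1 CPM in M1 (log2 change 1.08 ± 0.071, adjusted p = 1.46e-12). Psmb6, the caspase-like subunit, had 655, 627, 629.9 and 625 CPM in M1_ONX, against 509, 687, 523 and 528 CPM in M1, and its groups overlap through M1 replicate 2. Its change of 0.18 ± 0.069 (adjusted p = 0.0388) became 0.29 without that library (adjusted p = 4.48e-06), while the call ended without any other single library of the comparison (0.13 to 0.18).

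In the 19S particle, the largest rise was in Psmc6, an ATPase of the base that unfolds substrates, with 382, 381, 369 and 394 CPM in M1_ONX, against 123, 72.1, 112 and 127 CPM in M1 (log2 change 1.81 ± 0.10, adjusted p = 6.61e-14). Psmd4, a ubiquitin receptor, had 403, 383, 399.9 and 415 CPM in M1_ONX, against 124, 169, 121 and 124 CPM in M1 (log2 change 1.57 ± 0.074, adjusted p = 1.45e-15). Psmd14, the deubiquitinase of the lid, had 257 to 269 CPM in M1_ONX and 79.0 to 99.8 CPM in M1 (log2 change 1.5 ± 0.059, adjusted p = 4.79e-17). The spread of M1 values in Psmc6 comes from M1 replicate 2, which was low, while in Psmd4 the same library was high. Psmd8 was the exception of the particle, with a log2 difference of 0.11 (adjusted p = 0.272), and it was called higher without M1 replicate 2 and under the 8-library scaling.

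The immunoproteasome moved the other way. All 5 tested genes of the immunoproteasome and of its PA28 cap fell, with a median of -0.47, and 4 of 5 fell under the 8-library scaling. Psmb8 (ENSMUSG00000024338, chromosome 17, 34197721 to 34201454, plus strand), which encodes the subunit that ONX-0914 targets, had 235, 249, 246 and 262 CPM in M1_ONX, against 361, 438, 342 and 346 CPM in M1 (log2 change -0.59 ± 0.069, adjusted p = 8.98e-08). Psmb9 (ENSMUSG00000096727, chromosome 17, 34181987 to 34187764, minus strand) had 148, 146, 146 and 149.5 CPM in M1_ONX, against 208, 286, 209.8 and 211 CPM in M1 (log2 change -0.63 ± 0.086, adjusted p = 9.29e-07), and Psmb10 (ENSMUSG00000031897, chromosome 8, 105935735 to 105938444, minus strand) had 359, 365, 401 and 421 CPM in M1_ONX, against 497, 665, 451 and 525 CPM in M1 (log2 change -0.47 ± 0.081, adjusted p = 2.91e-05). M1 replicate 2 was the highest library for all 3 genes, and without it the changes were -0.50, -0.51 and -0.35, each still called. Psme1 and Psme2, which encode the PA28 activator, changed by -0.30 and -0.30. On average, Psmb8 RNA was at 248 ± 11.1 CPM in M1_ONX and 372 ± 44.8 CPM in M1 (SD, n = 4 each).

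Genes that assemble the proteasome or deliver substrates to it rose more often than they fell, 9 against 3 of 16 tested. Psmd5, an assembly chaperone of the 19S base, had 99.0, 96.0, 99.7 and 96.7 CPM in M1_ONX, against 40.4, 36.1, 40.3 and 40.4 CPM in M1 (log2 change 1.32 ± 0.057, adjusted p = 2.93e-16). Rad23b, a shuttle that carries ubiquitinated proteins to the proteasome, had 417 to 433 CPM in M1_ONX and 163 to 191 CPM in M1 (log2 change 1.22 ± 0.05, adjusted p = 1.05e-16), and Ubqln2, a ubiquilin shuttle, had 60.8 to 70.9 CPM in M1_ONX and 31.6 to 35.1 CPM in M1 (log2 change 1.04 ± 0.058, adjusted p = 4.85e-14). Psmg2, Psmg4 and Psmd10, which encode assembly chaperones, fell (-0.49, -0.61 and -0.28). The rises also included Psme4, the proteasome activator PA200 (0.60), and Akirin2, a nuclear import factor of proteasomes (0.60).

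The gene of NRF1 itself fell. Nfe2l1 (ENSMUSG00000038615, chromosome 11, 96817414 to 96829968, minus strand) had 471, 523, 502 and 486 CPM in M1_ONX, against 564, 680.2, 601 and 553 CPM in M1 (log2 change -0.28 ± 0.055, adjusted p = 0.000165), with every M1_ONX library below every M1 library. Its call ended when the 8 libraries were analysed alone (log2 change -0.18, adjusted p = 0.062). Of 13 genes of the machinery that retrotranslocates and activates the NRF1 protein, 9 rose and 2 fell (Nfe2l1 and Ddi2, a protease that cleaves NRF1, -0.21). Without M1 replicate 3, 7 rose and 1 fell, and under the 8-library scaling 10 rose and 1 fell. The rises were led by the p97 complex. Ufd1, a cofactor of the p97 segregase, had 172, 163, 176 and 185 CPM in M1_ONX, against 67.3, 67.8, 59.1 and 60.6 CPM in M1 (log2 change 1.45 ± 0.056, adjusted p = 3.48e-17). Nsfl1c, the p97 cofactor p47, had 169.9 to 183 CPM in M1_ONX and 64.7 to 81.2 CPM in M1 (log2 change 1.33 ± 0.063, adjusted p = 1.84e-15), Nploc4, the partner of Ufd1, had 344 to 371 CPM in M1_ONX and 152 to 172 CPM in M1 (log2 change 1.17 ± 0.048, adjusted p = 8.78e-17), and Vcp, p97 itself, rose by 1.07. Ngly1, the enzyme that removes sugars from NRF1, rose by 0.34.

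In the NRF2 pathway the gene of the factor was also lower, while its listed targets rose more often than they fell. Nfe2l2 (ENSMUSG00000015839, chromosome 2, 75675513 to 75704641, minus strand) had 335, 327, 342 and 311 CPM in M1_ONX, against 482, 434, 451 and 451 CPM in M1 (log2 change -0.47 ± 0.047, adjusted p = 4.83e-09), and Keap1, which marks NRF2 for degradation, had 142, 135, 141 and 138 CPM in M1_ONX, against 160.3, 213, 168 and 158 CPM in M1 (log2 change -0.33 ± 0.072, adjusted p = 0.000467). Both fell, and the groups did not overlap for either. Sqstm1 (ENSMUSG00000015837, chromosome 11, 50199366 to 50210827, minus strand), which encodes p62, an autophagy receptor that binds KEAP1, had 3510.5, 3544, 3612 and 3619 CPM in M1_ONX, against 1503, 1807, 1482 and 1505 CPM in M1. It was 2.27-fold higher in M1_ONX (log2 change 1.18 ± 0.056, adjusted p = 1.7e-15), and rose by 1.255 without M1 replicate 2. The small MAF partners of NRF2 rose with it, Mafg with 240.4 ± 9.09 CPM in M1_ONX and 165 ± 10.2 CPM in M1 (SD, n = 4 each), Maff by 0.48 and Mafk by 0.30. Over the 10 core genes, 5 rose and 3 fell, the third being the kinase Tbk1 (-0.18).

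Of 26 antioxidant targets of NRF2, 13 rose and 5 fell, with a median of 0.34, and 2 fell under the 8-library scaling. Me1 had 32.1, 33.2, 35.6 and 36.0 CPM in M1_ONX, against 7.13, 4.78, 5.89 and 5.85 CPM in M1, and all M1_ONX libraries were over 4 times any M1 library (log2 change 2.53 ± 0.12, adjusted p = 1.39e-15). Osgin1, an oxidative stress-induced growth inhibitor, had 17.3, 14.5, 15.9 and 14.5 CPM in M1_ONX, against 4.01, 4.98, 3.70 and 4.78 CPM in M1 (log2 change 1.83 ± 0.14, adjusted p = 1.49e-11). Srxn1, sulfiredoxin, which repairs oxidized peroxiredoxins, had 629.7, 603, 623 and 605 CPM in M1_ONX, against 197, 203, 189 and 184 CPM in M1 (log2 change 1.67 ± 0.048, adjusted p = 1.3e-19). Gclm, the modifier subunit of glutamate cysteine ligase, which starts glutathione synthesis, rose by 1.63, Blvrb, a biliverdin reductase, by 0.86, and Taldo1, a pentose phosphate enzyme, by 0.78.

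Familiar NRF2 reporters differed among themselves. Nqo1, a quinone reductase, had 8.50, 7.38, 9.01 and 7.76 CPM in M1_ONX, against 3.12, 4.43, 4.10 and 4.41 CPM in M1 (log2 change 1.02 ± 0.16, adjusted p = 5.95e-06). Hmox1, heme oxygenase 1, had 573, 602, 621 and 594 CPM in M1_ONX, against 615, 722, 628 and 634 CPM in M1, overlapping groups and no call (log2 change -0.12 ± 0.055, adjusted p = 0.0768), and it passed as lower only without M1 replicate 1 (-0.15). The members that fell were Slc7a11, the cystine transporter (-0.45), G6pdx (-0.29), Tkt (-0.22), Txn1 (-0.20) and Abcc1 (-0.15).

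The promoters of these groups were searched for the core antioxidant response element TGACNNNGC, which NRF1 and NRF2 bind with small MAF proteins, on both strands of RefSeq windows from 250 bases before to 50 bases after each start (GRCm38.p6). It was present in 14% of 27025 genes with such a window and in 17% of the 10483 tested genes that matched one. It was found in 2 of 11 matched genes of the 20S core, 3 of 15 of the 19S particle and 8 of 20 NRF2 targets. Among the largest rises 4 of 11 matched genes held it (Lrp8, Me1, Pir and Kcnq1ot1), and among the largest falls 0 of 10. A gene counted if any of its windows held the element, and Lrp8 has 3 windows and Me1 has 2. The proteasome groups thus held it at about the share of all promoters, and the NRF2 targets more often. The match is a description of the letters, not of a bound site. The windows of 7 of the genes with a match that rose are shown to set the sequences beside the changes, 61 bases from 5′ to 3′ with the element in capitals. The element lies within 50 bases of the start in Me1, Lrp8, Kcnq1ot1, Psmb5 and Psmb6 and further upstream in Gclm and Psmc6. Srxn1, Pir, Prdx1, Psmd12 and Adrm1 also have the element and rose, and their windows are not shown. Among the 8 NRF2 targets with the element, G6pdx fell (-0.29), and Txnrd1 (0.040), Pgd (0.042) and Gsta3 (0.40) were not called.
Me1 (chr9:86695886-86695946, minus strand): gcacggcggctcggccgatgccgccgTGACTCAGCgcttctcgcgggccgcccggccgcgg
Lrp8 (chr4:107802824-107802884, plus strand): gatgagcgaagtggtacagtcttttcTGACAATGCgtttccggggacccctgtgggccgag
Kcnq1ot1 (chr7:143296559-143296619, minus strand): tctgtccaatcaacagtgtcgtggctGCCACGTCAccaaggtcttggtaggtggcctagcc
Gclm (chr3:122245397-122245457, plus strand): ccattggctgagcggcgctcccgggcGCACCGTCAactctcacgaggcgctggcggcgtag
Psmb5 (chr14:54618008-54618068, minus strand): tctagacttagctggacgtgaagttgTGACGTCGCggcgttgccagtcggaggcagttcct
Psmb6 (chr11:70525322-70525382, plus strand): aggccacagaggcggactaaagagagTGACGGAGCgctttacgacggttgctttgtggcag
Psmc6 (chr14:45329574-45329634, plus strand): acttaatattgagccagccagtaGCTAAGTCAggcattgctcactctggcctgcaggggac

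Heat shock proteins and their cochaperones, the mitochondrial Hspd1 and Hspe1 among them, rose almost without exception. Of 22, 20 rose and none fell, with a median of 0.60, and both counts were the same without M1 replicate 2. Hspa1b, a stress-inducible HSP70, had 126, 124, 131 and 145 CPM in M1_ONX, against 23.2, 29.1, 27.4 and 23.2 CPM in M1 (log2 change 2.35 ± 0.098, adjusted p = 1.41e-16). Its neighbour Hspa1a had 63.6, 61.1, 69.6 and 65.7 CPM in M1_ONX, against 11.4, 17.0, 15.1 and 12.4 CPM in M1 (log2 change 2.22 ± 0.098, adjusted p = 4.58e-16). The genes are near-identical copies, so reads may have been divided between them, and the 2 values are not independent. Dnajb4, an HSP40 cochaperone, had 42.9, 43.3, 45.1 and 46.6 CPM in M1_ONX, against 12.2, 6.02, 11.6 and 13 CPM in M1, over 3 times the highest M1 library (log2 change 2.05 ± 0.12, adjusted p = 1.32e-13). Hspb8, a small heat shock protein, rose by 2.0, Chordc1, an HSP90 cochaperone, by 1.17, Hsp90aa1, the inducible HSP90, by 1.16, Hsph1, an HSP110, by 1.15, and Bag3, a nucleotide exchange factor of HSP70, by 1.09. Hsf1, the gene of the heat shock factor, rose by 0.51. Stip1 and Fkbp4, HSP90 cochaperones, had log2 differences of 0.029 and 0.06 and were not called.

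In the same promoter windows, a heat shock element of 2 facing units (GAANNTTC or TTCNNGAA) was present in 12 of 17 matched members of this group (70.6%), against 17% of all genes with a window and 14.2% of the tested genes that matched one. The element is the binding unit of HSF1, and again a match is no evidence of binding. Windows of 9 members with the element and a rise are shown, since this group held the element in a larger share of its members than the other groups searched. Dnaja1 and Bag3 also have it and rose, Fkbp4 has it and was not called, and the windows of these genes are not shown. Hspa1a and Hspa1b have the same letters in this window. Hspd1 and Hspe1, the mitochondrial HSP60 and HSP10, share 1 promoter between them on opposite strands, so their windows are 2 views of the same stretch, and they rose by 0.38 and 0.46. Chordc1 holds overlapping units across its start.
Hspa1a (chr17:34972226-34972286, minus strand): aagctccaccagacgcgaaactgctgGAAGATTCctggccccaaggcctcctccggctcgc
Hspa1b (chr17:34959308-34959368, minus strand): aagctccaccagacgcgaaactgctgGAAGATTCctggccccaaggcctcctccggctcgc
Dnajb4 (chr3:152193825-152193885, minus strand): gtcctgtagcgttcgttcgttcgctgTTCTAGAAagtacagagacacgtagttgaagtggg
Hspb8 (chr5:116422828-116422888, minus strand): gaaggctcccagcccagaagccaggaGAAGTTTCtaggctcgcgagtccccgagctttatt
Chordc1 (chr9:18292237-18292297, plus strand): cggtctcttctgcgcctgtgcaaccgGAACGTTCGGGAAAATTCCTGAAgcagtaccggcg
Hsph1 (chr5:149636266-149636326, minus strand): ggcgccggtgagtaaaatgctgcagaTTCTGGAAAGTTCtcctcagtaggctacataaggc
Hspb1 (chr5:135887796-135887856, plus strand): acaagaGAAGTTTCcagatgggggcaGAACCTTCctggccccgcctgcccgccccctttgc
Hspd1 (chr1:55088032-55088092, minus strand): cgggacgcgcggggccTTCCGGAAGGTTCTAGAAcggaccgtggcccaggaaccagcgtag
Hspe1 (chr1:55088043-55088103, plus strand): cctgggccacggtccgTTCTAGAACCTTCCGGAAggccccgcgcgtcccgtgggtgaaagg

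Ubb, a polyubiquitin gene, rose beside the proteasome. It had 1934, 2036, 2209.8 and 2181 CPM in M1_ONX, against 1079.8, 1836, 1093 and 1179.5 CPM in M1 (log2 change 0.69 ± 0.12, adjusted p = 2.56e-05). M1 replicate 2 was the M1 library nearest to M1_ONX. Over 23 ubiquitin and E2 genes, 5 rose and 4 fell, against 16.6% and 27.7% of all genes, and 8 rose under the 8-library scaling. E2 enzymes were on both sides. Ube2l3 (0.25), Ube2m (0.22) and Ube2r2 (0.14) rose. The falls were Ube2e1 at -0.34, Ube2d1 at -0.28 and Ube2z at -0.25, together with the E1 enzyme Uba1 (-0.16). Rps27a, a ribosomal ubiquitin fusion gene, was not called (-0.075).

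Among 22 deubiquitinases, 9 rose and 4 fell, and 8 rose and 6 fell without M1 replicate 2. Uchl1, described above, led them. Usp14, a deubiquitinase bound to the proteasome, had 197, 195, 198 and 197 CPM in M1_ONX, against 90.0, 33.4, 81.2 and 76.8 CPM in M1, with M1 replicate 2 far below the other M1 libraries (log2 change 1.48 ± 0.15, adjusted p = 4.4e-09), and 1.251 without that library. Usp5, which recycles free ubiquitin chains, had 208 to 213 CPM in M1_ONX and 121 to 161 CPM in M1 (log2 change 0.63 ± 0.062, adjusted p = 3.12e-09). Of 24 autophagy genes, 9 rose and 7 fell. Gabarapl1, an ATG8 family member, had 363, 316, 325 and 353 CPM in M1_ONX, against 139, 142, 128 and 128 CPM in M1 (log2 change 1.34 ± 0.058, adjusted p = 2.45e-16). Wipi2, which acts in phagophore formation, had 95.4 to 97.6 CPM in M1_ONX and 50.5 to 59.1 CPM in M1 (log2 change 0.81 ± 0.048, adjusted p = 2.1e-13), and Nbr1, a receptor related to p62, had 126 to 129 CPM in M1_ONX and 70.8 to 80.7 CPM in M1 (log2 change 0.73 ± 0.05, adjusted p = 3.04e-12). Map1lc3a fell by 0.72 on the log2 scale, and Map1lc3b, the usual autophagy marker, had -0.091 and was not called. Lysosomal genes mostly fell, 14 of 26 against 3 that rose (10 and 6 under the 8-library scaling, and 14 and 5 without M1 replicate 2). The 3 were V-ATPase subunits, led by Atp6v1h, with 498 to 515 CPM in M1_ONX and 241 to 307 CPM in M1 (log2 change 0.88 ± 0.059, adjusted p = 1.82e-12). Tfeb, the master regulator of lysosomal genes, fell by 0.53, and Ctsd, cathepsin D, by 0.44 (log2).

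Other stress pathways were mixed. In the ATF4 integrated stress response, 7 of 20 members rose and 5 fell, with a median of 0.11, and 3 fell without M1_ONX replicate 1. Ppp1r15a (GADD34), which ends the stress response by dephosphorylating eIF2α, had 225, 227, 233 and 227 CPM in M1_ONX, against 114, 148, 124 and 116 CPM in M1 (log2 change 0.86 ± 0.066, adjusted p = 2.79e-11). Chac1, which degrades glutathione, had 20.2, 18.4, 20.1 and 19.6 CPM in M1_ONX, against 9.997, 14.3, 11 and 12 CPM in M1 (log2 change 0.73 ± 0.11, adjusted p = 6.78e-06). Sesn2, a stress-induced inhibitor of mTORC1 signalling, had 76.6 to 82.9 CPM in M1_ONX and 47.9 to 58.4 CPM in M1 (log2 change 0.63 ± 0.074, adjusted p = 8.18e-08). Atf4 (0.39), Ddit3 (0.34), Trib3 (0.45) and Asns (0.29) also rose. The falls were in Gpt2 (-0.57), Ddit4 (-0.51), Atf3 (-0.38), Vldlr (-0.36) and Psat1 (-0.28).

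Of 20 genes of ER folding and quality control, 6 rose and 7 fell, against 16.6% and 27.7% of all genes. Under the 8-library scaling 9 rose and 6 fell. Dnajb9, an ER cochaperone, had 36.5 to 43.6 CPM in M1_ONX and 12.3 to 26.8 CPM in M1 (log2 change 0.86 ± 0.13, adjusted p = 3.66e-06), and Herpud1, an ERAD component, had 23.6 to 27.7 CPM in M1_ONX and 14.8 to 18.1 CPM in M1 (log2 change 0.59 ± 0.071, adjusted p = 1.22e-07). Sdf2l1, an ER chaperone partner, fell by 0.91. Hspa5, the gene of BiP, changed by only 0.16. Amino acid transporters fell for 8 and rose for 4 of 19 tested. Slc3a2, the heavy chain shared by several transporters, had 1282, 1260.0, 1302 and 1332 CPM in M1_ONX, against 671, 830.1, 672 and 672 CPM in M1 (log2 change 0.86 ± 0.056, adjusted p = 1.22e-12), with Slc38a2 (0.64), Slc6a9 (0.37) and Slc7a5 (0.25) also higher. Slc1a2, a glutamate transporter, had 1.55 to 2.34 CPM in M1_ONX and 4.09 to 5.54 CPM in M1 (log2 change -1.27 ± 0.23, adjusted p = 5.01e-05), and Slc43a2, a carrier of branched-chain amino acids, fell by 0.70 on the log2 scale.

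**Figure D3:**
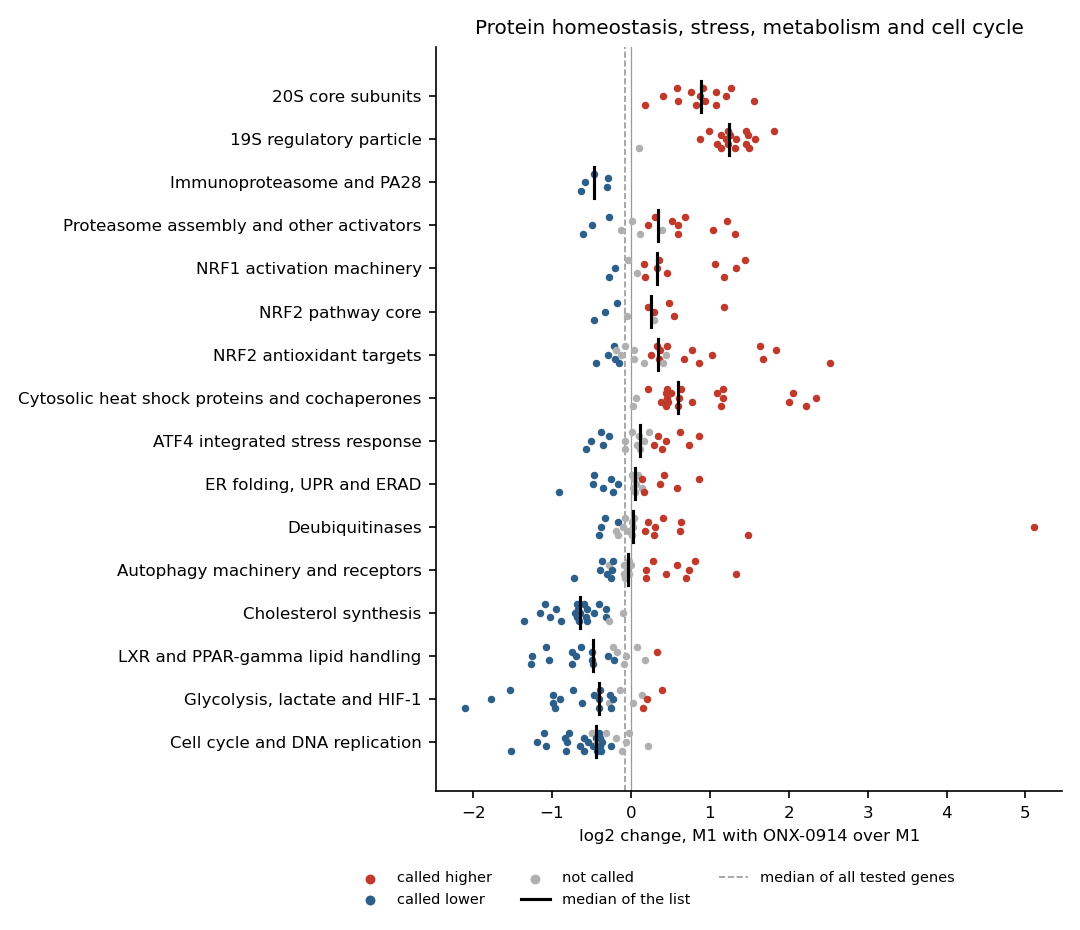
Log2 change of M1_ONX over M1 for every tested member of 16 gene lists (1 point per gene, red called higher, blue called lower, grey not called), with the list median as a black bar and the median of all tested genes as a dashed line. The 20S core (median 0.89), the 19S particle (1.24) and the heat shock genes (0.60) lie to the right, and cholesterol synthesis (-0.65) and the cell cycle (-0.44) to the left.

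Cholesterol synthesis fell as a group: 20 of 22 genes fell and none rose, with a median of -0.65, and the counts were the same without M1 replicate 2 and under the 8-library scaling. Dhcr7, which makes cholesterol in the last step of one branch, had 3.85, 3.24, 3.85 and 4.21 CPM in M1_ONX, against 9.04, 12.5, 9.53 and 7.87 CPM in M1 (log2 change -1.35 ± 0.11, adjusted p = 1.33e-10). Fdft1, squalene synthase, had 19.96, 19.7, 18.7 and 22.5 CPM in M1_ONX, against 39.7, 52.7, 38.9 and 41.3 CPM in M1 (log2 change -1.09 ± 0.087, adjusted p = 6.59e-11). Fdps, which makes farnesyl diphosphate, fell by 1.15 on the log2 scale but from a level near 1 CPM. Sqle, squalene epoxidase, changed by -0.68, and Srebf2, the gene of the transcription factor SREBP2 that drives the pathway, by -0.69. Pmvk, phosphomevalonate kinase, was not called (-0.096).

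Sterol efflux genes fell in the same samples. Of 20 genes of LXR and PPAR-γ lipid handling, 13 fell and 1 rose (Smpdl3a, 0.33), and 2 rose without M1 replicate 2 or under the 8-library scaling. Nr1h3, which encodes the sterol sensor LXRα, had 63.8, 61.1, 61.9 and 53.1 CPM in M1_ONX, against 142, 165, 141 and 129.9 CPM in M1 (log2 change -1.27 ± 0.067, adjusted p = 1.61e-14). Abcg1, a cholesterol exporter and LXR target, had 41.9, 41.1, 38.6 and 34.4 CPM in M1_ONX, against 83.1, 99.6, 109.6 and 81.1 CPM in M1 (log2 change -1.26 ± 0.076, adjusted p = 2.42e-13), and Abca1, the other main exporter, had 72.2 to 91.5 CPM in M1_ONX and 165 to 191 CPM in M1 (log2 change -1.08 ± 0.086, adjusted p = 6.69e-11). Scd2 (-1.04) and Scd1 (-0.74), which desaturate fatty acids, and Fabp4 (-0.75) fell as well. Synthesis and efflux genes were thus lower together.

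Genes of glycolysis, lactate export and HIF-1 fell for 16 and rose for 3 of 23 members, with a median of -0.41. Pfkl, the liver type of phosphofructokinase, had 61.1, 70.6, 62.9 and 52.1 CPM in M1_ONX, against 191, 261, 216 and 178 CPM in M1 (log2 change -1.78 ± 0.093, adjusted p = 1.54e-14). Tpi1, triosephosphate isomerase, had 148, 157, 153 and 134 CPM in M1_ONX, against 394, 490.5, 429 and 391.7 CPM in M1 (log2 change -1.53 ± 0.071, adjusted p = 1.01e-15). Groups were well apart for both, and Slc16a3 and Pdk1 were described above. Bnip3 (-0.99), a mitophagy receptor induced by hypoxia, Eno1 (-0.98), Egln3 (-0.96), an oxygen sensor, Ldha (-0.90), lactate dehydrogenase, Hk2 (-0.73) and Hif1a (-0.47) fell too. The rises were small: Gpi1 (0.40), Aldoa (0.21) and Pkm (0.15), of which 1 remained without M1 replicate 1 or without M1 replicate 4. Genes of this group have closely similar pseudogenes, so reads of Tpi1, Eno1 and Ldha may be shared with them.

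Mitochondrial genes moved less. Of 29 nuclear genes of the respiratory chain, 4 rose and 6 fell, near or below the background share, and 6 rose and 4 fell without M1 replicate 2 and 5 rose and 3 fell under the 8-library scaling. Ndufa4 had 80.9 to 86.4 CPM in M1_ONX and 53.2 to 64.6 CPM in M1 (log2 change 0.52 ± 0.067, adjusted p = 3.54e-07), and Atp5b had 732 to 763 CPM in M1_ONX and 844 to 1023 CPM in M1 (log2 change -0.26 ± 0.054, adjusted p = 0.000313). Of 19 genes of the TCA cycle and itaconate, 8 fell and 3 rose, and 6 rose under the 8-library scaling and 5 without M1 replicate 2. Acod1, which makes the immune metabolite itaconate, had 3144, 3104, 3324 and 3168 CPM in M1_ONX, against 4910.3, 5151, 4957 and 4718 CPM in M1 (log2 change -0.63 ± 0.16, adjusted p = 0.00216), and Idh2 fell by 0.55. Of 15 genes of arginine, nitric oxide and polyamines, 8 fell and none rose (5 and 1 under the 8-library scaling). Nos2, inducible nitric oxide synthase, had 944, 934, 918 and 744 CPM in M1_ONX, against 1799.7, 2071, 2376 and 1668 CPM in M1 (log2 change -1.16 ± 0.089, adjusted p = 1.39e-10), and the change was -1.14 without M1 replicate 2. Arg1, which competes with it for arginine, had 3.90, 4.74, 4.51 and 3.50 CPM in M1_ONX, against 8.21, 9.0, 9.64 and 7.43 CPM in M1 (log2 change -1.05 ± 0.15, adjusted p = 2.43e-06), and Ass1, which regenerates arginine, fell by 0.44. Both arginine-consuming enzymes were therefore lower in M1_ONX.

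Inflammatory cytokines did not move together. Of 19 tested, 4 rose and 6 fell, with a median of -0.065, close to that of all genes. Under the 8-library scaling 6 rose and 5 fell, and 2 rose without M1 replicate 1 or without M1_ONX replicate 2 or 3. Tnf had 2263, 2145, 2319.5 and 2331 CPM in M1_ONX, against 2314, 2506, 2310.2 and 2294 CPM in M1, with overlapping groups (log2 change -0.057 ± 0.076, adjusted p = 0.581). Il1b had 32.5, 37.4, 47.7 and 43.8 CPM in M1_ONX, against 36.2, 53.6, 38.2 and 44.1 CPM in M1 and was not called either (adjusted p = 0.587). Il6 had 78.7, 81.0, 89.8 and 97.1 CPM in M1_ONX, against 124, 47.5, 99.0 and 125 CPM in M1, and its call depended on M1 replicate 2 and on the tool. The change was -0.19 ± 0.18 with it (adjusted p = 0.425) and -0.42 without it (adjusted p = 0.000984). With limma voom and quality weights on all libraries it was -0.41 (adjusted p = 0.000133).

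Among single cytokines, Il12b, Il12a, Il10 and Il18 were lower. Il12b, the p40 subunit, had 289, 273, 295 and 215 CPM in M1_ONX, against 375, 287, 367 and 303 CPM in M1 (log2 change -0.31 ± 0.10, adjusted p = 0.0159). That call ended under the 8-library scaling (-0.23) and without M1 replicate 1, M1 replicate 3 or M1_ONX replicate 4 (-0.25, -0.26 and -0.22). Il12a, the p35 subunit, had 20.7, 20.4, 25.5 and 24.9 CPM in M1_ONX, against 44.2, 48.5, 37.0 and 47.4 CPM in M1 (log2 change -0.95 ± 0.11, adjusted p = 1.82e-07), and Il10, an anti-inflammatory cytokine, fell by 1.07. Il18 had 17.1, 17.7, 18.9 and 17.2 CPM in M1_ONX, against 33.2, 19.7, 23.7 and 34.6 CPM in M1 (log2 change -0.65 ± 0.15, adjusted p = 0.000623). Osm, oncostatin M, went the other way with 21.4, 20.8, 22.3 and 23.4 CPM in M1_ONX, against 8.47, 11.1, 9.24 and 8.69 CPM in M1 (log2 change 1.23 ± 0.094, adjusted p = 2.6e-11). Il1a (0.57), Csf3 (0.38) and Il1rn (0.21) were the other rises.

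Among 22 tested chemokines, 7 rose and 8 fell, against 16.6% and 27.7% of all genes. Cxcl2, a neutrophil attractant, had 435, 544, 639 and 716 CPM in M1_ONX, against 343, 275, 271 and 375 CPM in M1, which spread widely in M1_ONX but stayed above every M1 library (log2 change 0.89 ± 0.13, adjusted p = 1.97e-06). Cxcl1 (0.74), Ccl9 (0.70), Cxcl5 (0.62), Ccl3 (0.59), Ccl4 (0.49) and Ccl2 (0.28) rose as well. Cxcl13, a B cell attractant, had 2.37 to 4.02 CPM in M1_ONX and 5.95 to 9.30 CPM in M1 (log2 change -1.24 ± 0.19, adjusted p = 3.8e-06). The interferon-induced Cxcl10 (-0.39) and Cxcl11 (-0.33) fell, while Cxcl9 was not called (0.13). Cx3cl1 fell at about 1 CPM (-1.48).

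Receptors for chemoattractants fell for 10 and rose for 1 of 15 tested (Ccr1, 0.42). Fpr1 had 3.60, 4.92, 5.57 and 4.39 CPM in M1_ONX, against 22.4, 23.3, 21.7 and 25.0 CPM in M1. The highest M1_ONX library was far below the lowest M1 library (log2 change -2.33 ± 0.16, adjusted p = 1.37e-11). Fpr2 changed by -1.37, P2ry6, a receptor for UDP, had 20.5 to 28.1 CPM in M1_ONX and 65.0 to 90.7 CPM in M1 (log2 change -1.56 ± 0.10, adjusted p = 8.35e-13), and C5ar1, the receptor of complement C5a, had 9.25 to 12.7 CPM in M1_ONX and 23.2 to 33.2 CPM in M1 (log2 change -1.25 ± 0.13, adjusted p = 9.4e-09). Ccr7, which guides cells to lymph nodes, was low in both groups with 0.250, 0.540, 0.474 and 0.356 CPM in M1_ONX, against 2.61, 2.35, 2.54 and 1.89 CPM in M1 (log2 change -2.54 ± 0.35, adjusted p = 9.69e-07).

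TNF superfamily ligands and receptors fell for 11 and rose for 4 of 21 tested. Tnfrsf26, a receptor related to the decoy TRAIL receptors, had 48.1, 53.7, 52.2 and 59.0 CPM in M1_ONX, against 16.7, 15.3, 17.5 and 17.8 CPM in M1 (log2 change 1.66 ± 0.075, adjusted p = 6.17e-16). Tnfsf10, which encodes TRAIL, had 52.6, 62.4, 64.1 and 62.2 CPM in M1_ONX, against 137, 109, 145 and 139 CPM in M1 (log2 change -1.13 ± 0.09, adjusted p = 5.9e-11). Tnfrsf10b, the mouse TRAIL death receptor, rose by 0.63, and so the ligand was lower and its receptor higher. Tnfsf13b (0.40) and Tnfrsf12a (0.33) were the remaining rises. Ltb fell at about 1 CPM (-1.75), and Cd40, a costimulatory receptor, changed by -0.46.

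Of 23 genes of NF-κB subunits and feedback, 15 fell and 1 rose (12 and 3 under the 8-library scaling), with a median of -0.25. Nfkb2 had 432, 435, 473 and 455 CPM in M1_ONX, against 678, 794, 685 and 663 CPM in M1 (log2 change -0.65 ± 0.059, adjusted p = 7.53e-10). Ikbke, a kinase of the interferon and NF-κB pathways, had 256, 247, 259 and 258 CPM in M1_ONX, against 397, 469, 398 and 372 CPM in M1 (log2 change -0.68 ± 0.062, adjusted p = 8.57e-10). Nfkbiz, which encodes a nuclear coactivator induced by Toll-like receptors, had 83.0 to 105 CPM in M1_ONX and 143 to 155 CPM in M1 (log2 change -0.63 ± 0.07, adjusted p = 2.64e-08). Nfkbia (-0.41) and Tnfaip3 (-0.37), which shut the pathway off, fell with Nfkb1 (-0.41) and Relb (-0.42). Ikbkg, the gene of the adaptor NEMO, was the rise (0.14), which was not called without M1 replicate 4 or without M1_ONX replicate 1, 2 or 3.

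Toll-like receptors and their adaptors fell for 11 and rose for 5 of 22. Tlr1 had 41.4, 39.2, 43.0 and 38.6 CPM in M1_ONX, against 162, 125, 148 and 159 CPM in M1, nearly a 3-fold gap between the groups (log2 change -1.87 ± 0.076, adjusted p = 8.67e-17). Tlr6, which like Tlr1 pairs with TLR2 to sense lipoproteins, had 21.4, 24.6, 25.6 and 23.4 CPM in M1_ONX, against 71.6, 60.6, 69.1 and 68.8 CPM in M1 (log2 change -1.51 ± 0.07, adjusted p = 1.02e-15), and Tlr8, an endosomal receptor, had 12.8, 21.0, 19.3 and 16.4 CPM in M1_ONX, against 61.9, 39.3, 57.9 and 61.7 CPM in M1 (log2 change -1.68 ± 0.12, adjusted p = 4.92e-12). Tlr9 (-1.26), Tlr13 (-0.83) and Tlr3 (-0.80), which sense nucleic acids, fell too, with Myd88 (-0.63), the common adaptor. Tlr2, the partner of TLR1 and TLR6, rose instead (0.51), along with Traf6 (0.31), Ticam1 (0.30), Cd14 (0.27) and Irak1 (0.14). Tlr4, the receptor of LPS, was not called (-0.37).

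Interferon-induced genes had small changes. Guanylate-binding proteins and immunity-related GTPases fell for 13 and rose for 0 of 20 tested, with a median of -0.29. The count of falls was 8 under the 8-library scaling or without M1 replicate 3, and 18 without M1 replicate 2. Gbp2b had 2.45, 2.40, 2.61 and 2.25 CPM in M1_ONX, against 5.60, 5.19, 5.66 and 5.73 CPM in M1 (log2 change -1.19 ± 0.24, adjusted p = 0.000159). Gbp10 and Gbp11 had changes of -0.57 and -0.58, and both calls ended without M1 replicate 3 (-0.39 and -0.51) that of Gbp10 without M1_ONX replicate 3 (-0.43), and that of Gbp11 without the count filter (-0.56). These genes are close paralogs, so reads may be shared among them. Type I interferon-stimulated genes were called lower for 9 and higher for 1 of 32, close to the 27.7% of all genes that fell. The count was 4 under the 8-library scaling, 14 without M1 replicate 2 and 5 without M1_ONX replicate 1. Isg20, an antiviral exonuclease, had 88.9, 101, 103 and 111 CPM in M1_ONX, against 145, 225, 131 and 166 CPM in M1 (log2 change -0.72 ± 0.11, adjusted p = 5.1e-06), Slfn5 fell by 0.56 and Ifit3 by 0.38, and Mx2 was the rise (0.29), not called without M1_ONX replicate 4, while 2 rose under the 8-library scaling.

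Of 27 genes of interferon and cytokine signalling, 17 fell and 1 rose (12 and 1 under the 8-library scaling). Stat3, which transmits IL-6 and IL-10 signals, had 219.5, 207, 220.2 and 209 CPM in M1_ONX, against 335, 398, 395 and 321 CPM in M1 (log2 change -0.76 ± 0.059, adjusted p = 3.98e-11). Stat5a had 29.8 to 32.4 CPM in M1_ONX and 43.7 to 56.5 CPM in M1 (log2 change -0.63 ± 0.073, adjusted p = 8.06e-08), and Jak3 (-0.60), Ifnar1 (-0.59), Tyk2 (-0.56), Socs1 (-0.50) and Ifngr2 (-0.47) fell. Irf1, an IFN-γ target, was not called (-0.15). Cish, a feedback inhibitor of STAT5 signalling, had 9.25, 5.88, 8.01 and 6.82 CPM in M1_ONX, against 2.8, 3.18, 3.70 and 3.34 CPM in M1 (log2 change 1.20 ± 0.17, adjusted p = 1.36e-06), while Socs1 and Socs3 (-0.32) fell.

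Antigen presentation genes fell in both classes. Of 15 class I genes, 10 fell and 1 rose (B2m, 0.18), and 3 rose under the 8-library scaling or without M1 replicate 2. H2-Q6 and H2-Q7, nonclassical molecules, had 90.1 to 96.9 CPM in M1_ONX and 165 to 233 CPM in M1 (log2 change -1.03 ± 0.09, adjusted p = 3.6e-10) and 71.4 to 91.2 CPM in M1_ONX and 119 to 199 CPM in M1 (log2 change -0.90 ± 0.13, adjusted p = 1.49e-06), and as close copies they may share reads. Tapbpl, a peptide editor, had 122 to 133 CPM in M1_ONX and 178 to 218 CPM in M1 (log2 change -0.56 ± 0.07, adjusted p = 2.19e-07), and Tap2 (-0.54) and Tap1 (-0.42), the peptide transporter, fell. The classical H2-K1 changed by -0.20, and H2-D1 was not called (0.18).

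Of 10 class II genes, 7 fell and none rose, with a median of -0.76. Ciita, the transactivator of class II genes, had 17.9, 13.9, 16.7 and 12.4 CPM in M1_ONX, against 30.8, 29.6, 37.1 and 27.0 CPM in M1 (log2 change -1.03 ± 0.13, adjusted p = 4.15e-07). H2-Aa had 51.1, 45.8, 45.6 and 44.1 CPM in M1_ONX, against 95.1, 95.2, 87.1 and 90.3 CPM in M1 (log2 change -0.98 ± 0.064, adjusted p = 1.53e-12), and H2-Eb1 had 20.3 to 25.0 CPM in M1_ONX and 37.3 to 48.0 CPM in M1 (log2 change -0.90 ± 0.091, adjusted p = 6.04e-09). B cells also carry class II, and their markers moved in the same direction, as given above. Costimulatory and checkpoint molecules fell for 10 and rose for 2 of 19 (Pvr, 0.41, and Vsir, 0.16), and 1 rose without M1 replicate 1, 3 or 4 or M1_ONX replicate 4. Slamf9 had 16.1 to 22.8 CPM in M1_ONX and 27.8 to 41.6 CPM in M1 (log2 change -0.78 ± 0.13, adjusted p = 1.3e-05), Icosl had 15.4 to 21.2 CPM in M1_ONX and 27.7 to 36.4 CPM in M1 (log2 change -0.77 ± 0.13, adjusted p = 1.63e-05), and Cd48 had 73.8 to 79.0 CPM in M1_ONX and 106 to 142 CPM in M1 (log2 change -0.73 ± 0.068, adjusted p = 1.21e-09). Cd86 (0.18) and Cd274, the gene of PD-L1 (-0.046), were not called.

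Fc receptors and their ITAM signalling genes fell for 11 and rose for 1 of 15 tested (Lilr4b, 0.39), with a median of -0.43. Besides Sla and Fcgr1, Ptpn6, which encodes the inhibitory phosphatase SHP-1, had 432, 393, 413 and 405 CPM in M1_ONX, against 720.3, 836, 728 and 695 CPM in M1 (log2 change -0.86 ± 0.052, adjusted p = 2.48e-13). Pirb (-0.80), Sirpa (-0.69), Fcgr2b (-0.65) and Syk (-0.58) fell. Both activating and inhibitory members are therefore among the falls. C-type lectins and scavenger receptors fell for 14 and rose for 2 of 24 (Tyro3, 0.78, and Clec4d, 0.21), and 1 rose without M1 replicate 2 or 3 or M1_ONX replicate 4. Clec4a1 had 0.80, 1.08, 1.48 and 1.24 CPM in M1_ONX, against 5.67, 6.85, 4.50 and 6.67 CPM in M1 (log2 change -2.37 ± 0.18, adjusted p = 2.86e-11), and its paralogs Clec4a2 (-1.52) and Clec4a3 (-1.24) fell with it, where reads may be shared. Mrc1, the mannose receptor, changed by -0.71, and Msr1, a scavenger receptor, by -0.75.

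Complement genes fell for 11 and rose for 0 of 18. C1qb had 133, 125, 128 and 103 CPM in M1_ONX, against 213, 274, 248 and 197 CPM in M1 (log2 change -0.93 ± 0.11, adjusted p = 5.46e-08), C1qc had 49.1 to 52.0 CPM in M1_ONX and 82.6 to 116 CPM in M1 (log2 change -0.91 ± 0.09, adjusted p = 3.95e-09), and C1qa changed by -0.65, so all 3 chains of C1q were lower. Matrix proteases and inhibitors were balanced, with 7 up and 7 down of 22. Mmp12, macrophage elastase, had 3798, 3717, 3992 and 4109 CPM in M1_ONX, against 3179, 2268, 2882 and 3164 CPM in M1 (log2 change 0.44 ± 0.075, adjusted p = 2.11e-05), and 0.34 without M1 replicate 2, its lowest M1 library. Mmp19 had 46.8, 43.2, 41.9 and 42.9 CPM in M1_ONX, against 21.2, 15.9, 19.7 and 18.9 CPM in M1 (log2 change 1.21 ± 0.086, adjusted p = 8.33e-12), and Mmp13, a collagenase, had 191 to 226 CPM in M1_ONX and 80.8 to 126 CPM in M1 (log2 change 0.90 ± 0.087, adjusted p = 2.39e-09). Adamts1 (0.86), Mmp8 (0.85), Adam8 (0.62) and Mmp10 (0.61) also rose. Mmp25 fell by 1.54, with Mmp14 (-0.79), Mmp2 (-0.75), Mmp9 (-0.71) and Adam17 (-0.71), the enzyme that sheds TNF.

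**Figure D4:**
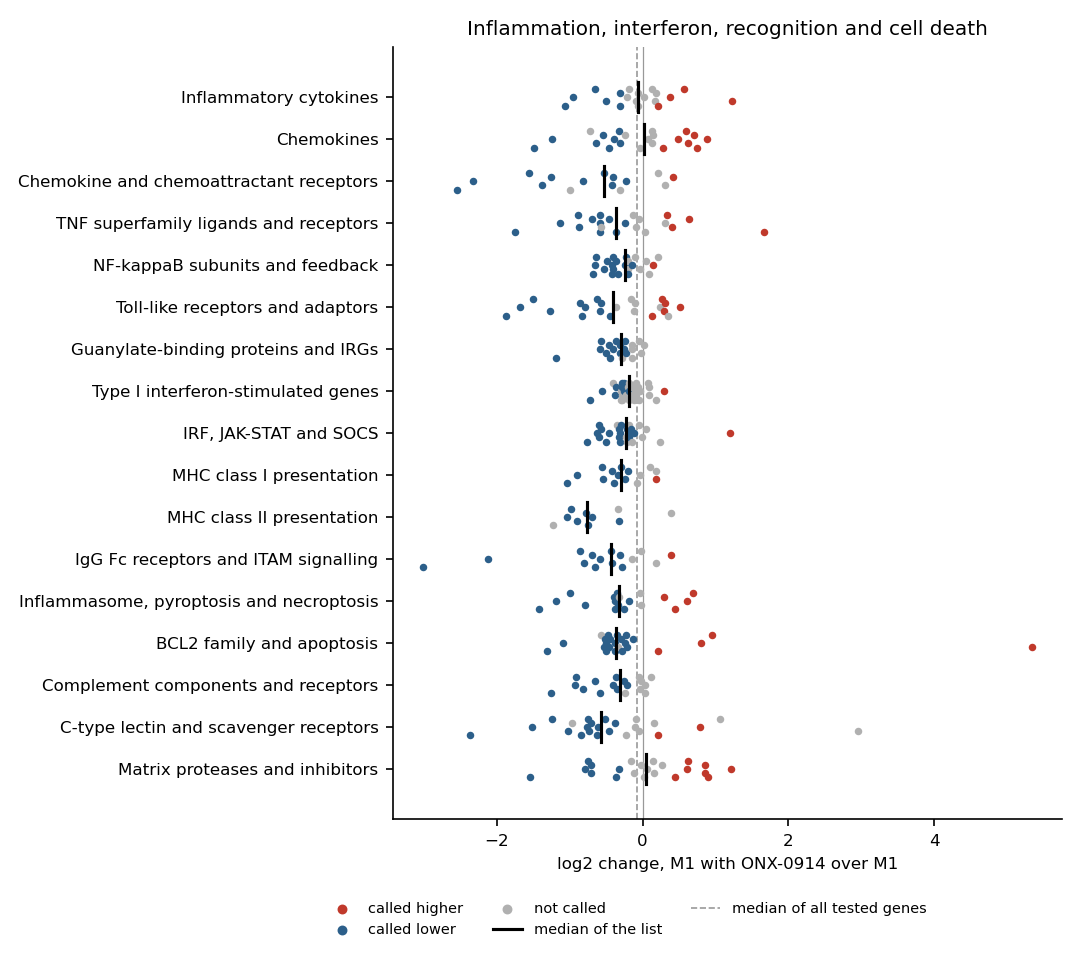
Log2 change of M1_ONX over M1 for every tested member of 17 gene lists of inflammation, interferon, recognition and cell death (1 point per gene, red called higher, blue called lower, grey not called), with the list median as a black bar and the median of all tested genes as a dashed line. Cytokines and chemokines spread to both sides of 0, and the class II genes have the lowest median (-0.76).

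Cell death genes changed in opposing directions within the same pathway. Of 18 genes of the inflammasome, pyroptosis and necroptosis, 11 fell and 4 rose. Mefv, which encodes the pyrin sensor, had 30.4, 29.2, 28.1 and 26.5 CPM in M1_ONX, against 76.6, 81.3, 74.2 and 72.4 CPM in M1 (log2 change -1.41 ± 0.12, adjusted p = 1.22e-10). P2rx7, the ATP receptor that triggers NLRP3, had 51.0, 50.6, 55.7 and 54.9 CPM in M1_ONX, against 105, 111, 105 and 104 CPM in M1 (log2 change -1.0 ± 0.057, adjusted p = 6.78e-14), and Pycard, the adaptor ASC, had 22.5 to 28.2 CPM in M1_ONX and 40.4 to 44.5 CPM in M1 (log2 change -0.79 ± 0.063, adjusted p = 6.59e-11). Nlrp3 (-0.39) fell. Nlrp1b (-1.18) fell too, but its groups overlapped at means of 0.17 CPM in M1_ONX and 0.40 CPM in M1. The rises were Casp1 (0.69), Ripk3 (0.61), Mlkl (0.45) and Casp4 (0.29), a kinase and a pseudokinase of necroptosis and a pair of inflammatory caspases.

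Of 24 genes of the BCL2 family and apoptosis, 18 fell and 4 rose (13 and 4 under the 8-library scaling). Bcl2l1, which encodes the survival factor BCL-XL, had 62.3, 58.9, 60.5 and 59.2 CPM in M1_ONX, against 125, 139.7, 123 and 124 CPM in M1 (log2 change -1.09 ± 0.066, adjusted p = 2.64e-13). Bcl2 changed by -0.51, Bak1 by -0.48 and Casp9 by -0.50. Besides Nol3, the rises were the proapoptotic Pmaip1 (NOXA, 0.96), Bcl2l11 (BIM, 0.80) and Bid (0.22). Bmf, another proapoptotic gene, fell at about 1 CPM (-1.31). Survival and death genes thus stand on both sides.

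Cell cycle and DNA replication genes fell for 21 and rose for 0 of 29, the same counts without M1 replicate 2 and under the 8-library scaling. Ccnd2, a D-type cyclin, had 24, 26.6, 26.0 and 25.7 CPM in M1_ONX, against 70.7, 73.9, 79.8 and 68.0 CPM in M1 (log2 change -1.52 ± 0.083, adjusted p = 3.33e-14), and Ccnd3 had 25.3, 23.4, 26.6 and 21.2 CPM in M1_ONX, against 45.9, 62.4, 52.9 and 47.1 CPM in M1 (log2 change -1.11 ± 0.088, adjusted p = 6.3e-11). Ccnb2 (-1.20) and Ccna2 (-1.08), cyclins of mitosis and S phase, fell at levels of a few CPM. The replicative helicase genes Mcm2 to Mcm7 all fell (-0.84 for Mcm5 to -0.25 for Mcm6).

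Immediate early and MAPK feedback genes were mixed. AP-1 and early growth response factors fell for 9 and rose for 4 of 19 tested. Fosl1 (FRA-1) had 27.8, 22.7, 29.7 and 27.6 CPM in M1_ONX, against 5.86, 7.96, 7.74 and 7.49 CPM in M1 (log2 change 1.89 ± 0.14, adjusted p = 1.28e-11). Ier2 had 11.4, 13.8, 11.6 and 11.9 CPM in M1_ONX, against 30.2, 36.1, 30.03 and 31.0 CPM in M1 (log2 change -1.39 ± 0.092, adjusted p = 1.7e-12), and Batf had 21.9 to 27.8 CPM in M1_ONX and 50.2 to 74.3 CPM in M1 (log2 change -1.21 ± 0.11, adjusted p = 3.56e-10). Egr2 (0.78), Ier3 (0.66) and Jun (0.44) rose. Of 14 MAPK phosphatases and feedback genes, 2 rose and 5 fell, against 16.6% and 27.7% of all genes. The counts were 4 and 5 under the 8-library scaling or without M1 replicate 2. Dusp10 had 6.0 to 10.3 CPM in M1_ONX and 2.83 to 3.87 CPM in M1 (log2 change 1.18 ± 0.16, adjusted p = 5.62e-07), Dusp1 had 114, 116, 124 and 124 CPM in M1_ONX, against 56.6, 68.0, 59.9 and 55.7 CPM in M1 (log2 change 1.0 ± 0.077, adjusted p = 3.46e-11), and Dusp6, which acts on ERK, had 19.1 to 22.8 CPM in M1_ONX and 31.8 to 38.3 CPM in M1 (log2 change -0.82 ± 0.076, adjusted p = 1.14e-09).

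Redox, metal and lipid mediator genes held a few large changes. Sod1, cytosolic superoxide dismutase, had 268, 266, 255 and 246 CPM in M1_ONX, against 54.6, 85.1, 54.6 and 55.5 CPM in M1, with a wide gap between the groups (log2 change 2.05 ± 0.095, adjusted p = 1.08e-15). Sod2, the mitochondrial form, had 1075 to 1119 CPM in M1_ONX and 1491 to 1679 CPM in M1 (log2 change -0.50 ± 0.059, adjusted p = 8.11e-08), and Rac2, a subunit of the phagocyte oxidase, had 181 to 202 CPM in M1_ONX and 334 to 458 CPM in M1 (log2 change -0.96 ± 0.078, adjusted p = 8.69e-11). Of the 11 tested genes of the oxidase and dismutases, 6 fell and 2 rose, Sod1 among them, against 4 and 3 under the 8-library scaling. Ptgs2, the inducible cyclooxygenase, had 507, 547, 556 and 536 CPM in M1_ONX, against 977, 646, 941 and 902 CPM in M1 (log2 change -0.69 ± 0.098, adjusted p = 1.6e-06), and Ptges3, a prostaglandin synthase that is also an HSP90 cochaperone, had 205 to 232 CPM in M1_ONX and 69.4 to 154 CPM in M1 (log2 change 0.81 ± 0.13, adjusted p = 1.18e-05). Over 18 genes of prostaglandins and leukotrienes, 7 fell and 2 rose (Ptges3 and Lta4h, 0.14), and 1 rose without M1 replicate 1 or M1_ONX replicate 3 or 4.

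Lcn2, which binds bacterial siderophores, had 15.2, 13.4, 15.3 and 15.9 CPM in M1_ONX, against 47.6, 60.2, 39.6 and 46.6 CPM in M1 (log2 change -1.70 ± 0.12, adjusted p = 1.13e-11). Hamp, hepcidin, had 2.85, 2.70, 5.40 and 4.03 CPM in M1_ONX, against 0.764, 1.66, 0.866 and 1.07 CPM in M1, low in both groups (log2 change 1.78 ± 0.30, adjusted p = 2.6e-05). Tfrc, the transferrin receptor, had 19.6, 22.6, 22.5 and 19.2 CPM in M1_ONX, against 45.4, 21.9, 43.8 and 40.2 CPM in M1, and its groups overlap through M1 replicate 2 (log2 change -0.86 ± 0.13, adjusted p = 3.56e-06, and -1.04 without it). Of 16 iron genes, 5 fell and 1 rose, against 27.7% and 16.6% of all genes. Under the 8-library scaling or without M1 replicate 2, 4 rose. Zinc genes were few and balanced, with 2 up and 2 down of 10 tested. Slc30a4, a zinc exporter, had 39.0 to 40.7 CPM in M1_ONX and 9.69 to 24.1 CPM in M1 (log2 change 1.0 ± 0.15, adjusted p = 2.97e-06), Slc39a1, an importer, had 196 to 206 CPM in M1_ONX and 327 to 381 CPM in M1 (log2 change -0.81 ± 0.049, adjusted p = 2.42e-13), Mt3 rose by 1.37 and Mt1 fell by 0.43.

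Genes of macrophage identity are set against the 16.6% of all genes that rose and the 27.7% that fell. Of 10 pan macrophage markers, 7 fell and 1 rose (Cd14). Their summed level was 9748 to 10273 CPM in M1_ONX and 12537 to 15461 CPM in M1, most of it Lyz2 (-0.47). Csf1r, the receptor of M-CSF, had 167, 186, 189 and 173 CPM in M1_ONX, against 291, 354, 300.1 and 278 CPM in M1 (log2 change -0.77 ± 0.06, adjusted p = 3.47e-11), and Adgre1, the gene of F4/80, had 379.6, 397, 411 and 379.9 CPM in M1_ONX, against 656, 653, 627 and 597 CPM in M1 (log2 change -0.69 ± 0.058, adjusted p = 1.42e-10). All 10 markers were detected in both groups. Of 20 genes of resident peritoneal macrophages, 7 fell and 2 rose (Icam2, 0.40, and Fcna, 0.24), shares near those of all genes. Without M1 replicate 1 or 4 or M1_ONX replicate 3 none rose, and without M1 replicate 3 or M1_ONX replicate 1 or 4 only 1 did. Gata6, the factor that specifies these cells, had 5.75 to 8.06 CPM in M1_ONX and 10.8 to 13.1 CPM in M1 (log2 change -0.75 ± 0.12, adjusted p = 9.66e-06). Of 21 tested genes that IL-4 induces in alternatively activated macrophages, 6 fell and 3 rose (Cish, Tfec, 0.83, and Egr2), also near those shares. Flt1 had 15.2 to 19.3 CPM in M1_ONX and 29.2 to 39.4 CPM in M1 (log2 change -1.03 ± 0.11, adjusted p = 2.07e-08), and the IL-4 genes Chil3 (0.13) and Retnla (-0.67) were not called.

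Sums of the markers of other cells were lower or alike in M1_ONX. Summed T and NK cell markers were 9.18 to 14.5 CPM in M1_ONX and 20.3 to 25.7 CPM in M1, nearly all of it Lck (-0.93), while Cd3d, Cd3g, Klrb1c and Ncr1 had no count in M1_ONX and Ncr1 none in M1. Neutrophil markers were 110.6 to 123.0 and 140.6 to 161.0 CPM, mostly Csf3r (-0.41), with Ly6g, S100a9, Cxcr2, Elane and Retnlg at 0 in both groups. Dendritic cell markers were 84.1 to 91.1 CPM in M1_ONX and 97.7 to 135.7 CPM in M1, mostly Fscn1 (-0.39). Xcr1 (0.86), Zbtb46 (0.36) and Batf3 (-0.57) were not called, and Siglech had no count in either group. Without M1 replicate 2, or under the 8-library scaling, 1 dendritic cell marker was called higher and 3 lower. Mast cell and basophil markers were 10.9 to 14.7 and 20.6 to 31.5 CPM, mostly Hdc (-1.01). Eosinophil markers were 6.10 to 6.17 and 8.40 to 9.07 CPM, mostly Siglecf (-0.50). Mcpt4, Mcpt8, Ms4a2, Prss34, Ear6, Epx and Prg2 had no count in either group. Mesothelial and fibroblast markers overlapped, at 791.8 to 903.2 CPM in M1_ONX and 800.4 to 1001 CPM in M1, with 3 of 13 members lower (6 without M1 replicate 1), among them Pdgfrb (-1.31). Of the tested members of the other lists, 1 of 2 was lower for T and NK cells, 1 of 4 for neutrophils (2 without M1 replicate 2) with 1 higher (Mmp8), 3 of 6 for dendritic cells, 1 of 3 for mast cells and basophils with 1 higher (Gata2, whose call ended without M1 replicate 1, 3 or 4 or M1_ONX replicate 2 or 3), and 2 of 2 for eosinophils. Their part in the changes above was not tested.

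The effect of the inhibitor in M1 cells differed from that in M0 cells for 2834 genes (19.3% of those tested, 6.9% more positive in M1 and 12.4% more negative), and from that in M2 cells for 1981 genes (13.5%, 3.8% more positive and 9.68% more negative), by the test of the difference itself. The contrasts share no libraries. The rise of the proteasome was common to the 3 states. The 20S core had a median change of 0.89 in M1, 0.82 in M0 and 1.21 in M2. Of its 14 genes, 3 had a more positive and 2 a more negative effect in M1 than in M0, and 7 had a more negative effect than in M2. The 19S particle had medians of 1.24, 0.97 and 1.36 in M1, M0 and M2, with 12 of 18 more positive than in M0 and 4 more negative than in M2. The effect on Uchl1 was 5.10 in M1, 4.71 in M0 and 5.45 in M2, and the differences of 0.40 ± 0.18 and -0.35 ± 0.18 were not called (adjusted p = 0.137 and 0.225). Those of Psmb5, 0.18 ± 0.11 and -0.20 ± 0.11, were not called either (adjusted p = 0.287 and 0.264).

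Heat shock genes distinguished M1 from M0 but less from M2. Of 22, 17 had a more positive effect in M1 than in M0, and 2 more positive and 4 more negative than in M2 (medians 0.60, 0.17 and 0.71 in M1, M0 and M2). Hspa1b changed by 2.35 in M1, 0.30 in M0 and 2.62 in M2, and the difference from M0 was 2.05 ± 0.16 (adjusted p = 3.77e-10). NRF2 targets had medians of 0.34, 0.12 and 0.41, with 11 of 26 more positive and 1 more negative than in M0, and 2 more positive and 8 more negative than in M2. Sqstm1 rose by 1.18 in M1 against 0.33 in M0 (difference 0.85 ± 0.079, adjusted p = 1.18e-08) and 0.95 in M2 (difference 0.23 ± 0.078, adjusted p = 0.0534). Srxn1 differed from both states, with changes of 1.67, 0.24 and 1.24 in M1, M0 and M2.

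The effect on ATF4 genes differed between M1 and both other states for most members. Their median was 0.11 in M1, -0.61 in M0 and -0.36 in M2, with 14 of 20 more positive than in M0 and 13 more positive than in M2, and none more negative than either. Chac1 rose by 0.73 in M1, while its changes were -1.25 in M0 (3.0 ± 0.568 CPM in M0_ONX and 7.2 ± 1.22 CPM in M0) and -0.83 in M2 (7.0 ± 0.772 CPM in M2_ONX and 12.4 ± 0.352 CPM in M2). The differences were 1.98 ± 0.18 and 1.56 ± 0.16 (adjusted p = 6.93e-09 and 1.65e-07). Efcc1, which encodes an EF-hand protein, rose by 1.75 in M1, against a change of -0.34 in M0 and 0.27 in M2 (differences 2.10 ± 0.12 and 1.49 ± 0.13). Tnfrsf26 changed by 1.66 in M1, 0.087 in M0 and 0.086 in M2. Its level of 53.2 ± 4.53 CPM in M1_ONX and 16.8 ± 1.10 CPM in M1 (SD, n = 4 each) compares with 66.0 ± 5.47 CPM in M0_ONX and 62.2 ± 5.51 CPM in M0 in unpolarized cells. Clec2i rose in all 3 states, most in M1 (3.97, 1.60 and 2.45 in M1, M0 and M2). Its mean level was 31.2 ± 2.30 CPM in M1_ONX and 1.97 ± 0.812 CPM in M1, and 48.0 ± 2.54 CPM in M0_ONX and 15.9 ± 0.817 CPM in M0 (SD, n = 4 each).

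With the factors from all 24 libraries, effects that were more negative in M1 were found in many of the lists. Among them were metabolism, pattern recognition, cell death, macrophage markers and MHC class I. Glycolysis genes had medians of -0.41, -0.050 and -0.17 in M1, M0 and M2, and 13 of 23 were more negative than in M0 and 12 than in M2, with 1 more positive than in M2. Slc16a3 changed by -2.11 in M1, -0.28 in M0 and -0.54 in M2 (differences -1.83 ± 0.13 and -1.57 ± 0.14). Toll-like receptors and adaptors were more negative for 10 of 22 against M0 (2 more positive) and 9 against M2, inflammasome and necroptosis genes for 11 and 9 of 18 (1 more positive than in M0), and Fc receptor genes for 9 and 6 of 15. Pan macrophage markers were more negative for 7 of 10 against M0 and 5 against M2, and MHC class I genes for 5 of 15 against M0 (1 more positive) and 8 against M2. Of the 32 type I interferon-stimulated genes, 7 were more negative than in M0 and 13 than in M2. Cell cycle genes were more negative for 14 of 29 against M0 and 6 against M2. Ccnd2 fell in M1 (-1.52) and rose in M0 (0.39) and M2 (0.33), with differences of -1.90 ± 0.14 and -1.85 ± 0.14 (adjusted p = 1.88e-10 and 7.96e-10).

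Sla fell in all 3 states and most in M1 (-3.00, -0.83 and -2.03 in M1, M0 and M2), and the differences were -2.17 ± 0.17 from M0 and -0.98 ± 0.17 from M2. Clec4a1 fell by more in M1 (-2.37) than in M2 (-0.87), and its change in M0 (-0.35) was not called. Mlkl, the effector of necroptosis, rose in all 3 states but least in M1 (0.45, 1.53 and 2.48). Its mean level was 463 ± 16.9 CPM in M1_ONX and 340.2 ± 11.8 CPM in M1, and 47.1 ± 1.72 CPM in M0_ONX and 16.3 ± 1.55 CPM in M0 (SD, n = 4 each). Isg20 fell in M1 (-0.72) and rose in M0 (0.65) and M2 (1.48). Class II genes went the other way from most falls: their medians were -0.76, -1.41 and -1.74 in M1, M0 and M2, and the effect of 4 of 10 was more positive in M1 than in M0 and of 5 than in M2, with 1 more negative than in M0. H2-Aa changed by -0.98 in M1 against -1.95 in M0 and -2.09 in M2 (differences 0.97 ± 0.10 and 1.11 ± 0.10). Cholesterol synthesis was alike, with medians of -0.65, -0.53 and -0.63 and 5 of 22 genes more negative in M1 than in M0, and 1 more positive and 3 more negative than in M2.

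**Figure D5:**
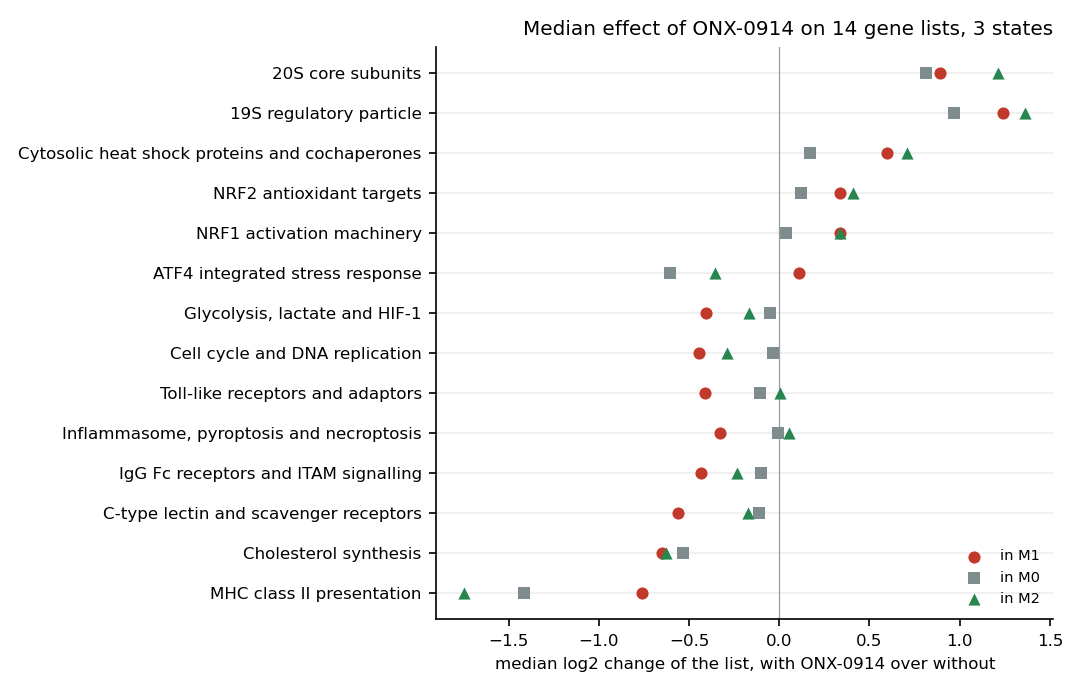
Median log2 change with ONX-0914 over without it for 14 gene lists (rows) in M1 (circles), M0 (squares) and M2 (triangles). The heat shock list stands at 0.60 in M1 and 0.17 in M0, the ATF4 list at 0.11 in M1 and -0.61 in M0, and the class II list at -0.76 in M1 and -1.74 in M2.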

How the data were processed

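PolyA RNA of 24 libraries was sequenced as paired reads. The authors deposited a table of raw counts per Ensembl gene. The submitters' processing notes name FastQC 0.11.9, cutadapt 2.8, Bowtie2 2.2.5, Picard and the build mm10, and the sources used here give no counter, strand setting or annotation, so overlapping and near-identical genes are uncertain. Symbols and positions came from GENCODE M21 (54409 of 54532 features matched).

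The deposited counts were fitted with edgeR 4.0.16 (R 4.3.3): a filter on low counts by group (14692 genes, 99.9% of counts), TMM factors and the quasi-likelihood test on all 24 libraries in 6 groups with 18 residual degrees of freedom, which share 1 estimate of the spread. Contrasts were M1_ONX over M1, and that change minus the same in M0 or in M2. Calls needed an adjusted p (Benjamini-Hochberg) below 0.05, and the procedure was tested on simulated data. Standard errors are the log2 change over the square root of F. DESeq2 1.42.0 and limma 3.58.1 (voom) served as alternatives, besides other filters, scalings, library sets and a replicate block. Groups came from the labels, and all 24 libraries were used.

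Named genes were the 12 largest rises and falls with at least 5 CPM and groups that did not overlap, up to 3 called members of each of 56 lists with at least 1 CPM, 18 preset genes, and the 4 largest differences each way from M0 and M2. The members and lists were chosen with earlier results of these data known, and other genes named were chosen from the lists after their values were seen. Some results are not reported here. Precision is limited by 18230924 to 22882972 counts a library and 4 pools of mice a group.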

Additional observations from a re-analysis of the deposited data

Results flagged for a closer look

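Within a group of 4 libraries, the highest or lowest value stood apart from the other three (gap over range above Dixon's critical value) in 41 of 372 groups screened, and chance flags about 1 in 20 groups. Of these 41 values, 26 were in M1 replicate 2, the library with the unusual GC profile. There, 22 genes were high, among them proteasome and ubiquitin genes: Psmb5 (193 CPM), Psmb6 (687), Psmb9 (286), Psmd4 (169), Nploc4 (172), Ubb (1836) and Sqstm1 (1807). Signalling and death genes high in the same library were Tnf (2506), Nfkb2 (794), Stat5a (56.5), P2rx7 (111), Bcl2l1 (139.7), C5ar1 (33.2), Ier2 (36.1) and Rac2 (458). The others were Slc3a2 (830.1), Sdf2l1 (39.5), Ndufb8 (41.3), Atp5b (1023), Tapbpl (218), Ctsd (10060.4) and Sod1 (85.1). Low in M1 replicate 2 were Psmd5 (36.1), Mmp13 (80.8), Clec4a3 (2.21) and Slc30a4 (9.69), again in CPM. Ndufb8 was the only gene of these whose call ended without this library.

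Other libraries had few such values. M1 replicate 3 was high for Pdk1 (30.7 CPM), Gbp10 (17.4) and Lck (22.8) and low for Map1a (2.31). M1_ONX replicate 1 was high for Psmb6 (655) and low for Ubqln2 (60.8), Tnfsf10 (52.6), Tapbpl (122), Icosl (15.4) and Hdc (9.002). M1_ONX replicate 2 was high for Sla (2.999) and Gbp11 (3.30), and M1_ONX replicate 3 for Lad1 (1.72). M1_ONX replicate 4 was high for Kcnq1ot1 (10.2) and low for Nos2 (744).

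The test of the difference between states singled out 8 genes for each other state by size. Compared with M0, the log2 effect in M1 was more positive for Clec2i by 2.37, Efcc1 by 2.10, Hspa1b by 2.05 and Chac1 by 1.98. It was more negative for Gbp2b (-2.77), Sla (-2.17), Pilrb1 (-2.05) and Clec4a1 (-2.02). Compared with M2, it was more positive for Tnfrsf26 by 1.57, Chac1 by 1.56, Clec2i by 1.52 and Efcc1 by 1.49. It was more negative for Gpr31a (-4.75), Isg20 (-2.20), Cst7 (-2.20) and Mlkl (-2.03). The value of Gpr31a depends on the tool, at -3.08 with voom, because no count of it was present in M2 and 6 in M2_ONX. Gbp2b rests on 10 counts in M0_ONX and 3 in M0. Pilrb1 rests on 32 counts in M0_ONX and 29 in M0, and Cst7 on 90 in M2_ONX and 31 in M2.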

How the results depend on the processing

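No gene called both in the reported analysis and under an alternative changed direction. The counts of 2438 rises and 4076 falls became 2496 and 3993 with DESeq2 size factors, 2507 and 3996 with the DESeq2 Wald test, and 2574 and 4230 without M1 replicate 2. Leaving out each library of the comparison in turn gave 2219 to 2574 rises and 3749 to 4230 falls, and 2460 to 3729 genes that differed from M0 and 1685 to 2576 from M2. Fitting the 8 libraries alone gave 2303 falls, and with the replicate block 1957. A minimum log2 change of 1 left 439 rises and 511 falls, and 435 and 246 genes that differed from M0 and M2. Replicate numbers did not pair the libraries (correlations of same-numbered libraries -0.014 to 0.030), and the replicate block over all libraries gave 2480 rises and 4078 falls. The factors from the 8 libraries were chosen after seeing the data. Many list counts that moved without 1 library or under the 8-library scaling are given with their results. So are calls of Psmb6, Il12b, Gata2 and Gbp10 that ended without single libraries, and the cause was not tested. List counts from fitting the 8 libraries alone are given above only for B cells. That fit applied the count filter anew and tested 12983 genes, so low members may have dropped out of its lists. In that fit falls went from 11 to 6 for inflammasome, pyroptosis and necroptosis genes and from 18 to 10 for BCL2 family and apoptosis genes. They went from 17 to 9 for interferon and cytokine signalling genes and from 6 to 0 for respiratory chain genes. With the DESeq2 Wald test the call of Ifit3 ended, and without the count filter those of Gata2 and Gbp11. Fitting the 8 libraries alone ended those of Atp5b, Bmf, Gbp10, Il12b, Ndufb8 and Nfe2l1, and the replicate block in that fit ended those of Keap1, Il18, Cx3cl1 and Gbp11 as well. Ndufb8 also lost its call under the 8-library scaling (-0.18), with limma voom (-0.12) and without M1_ONX replicate 2 or 4 (-0.23 and -0.25). Genes near 1 CPM have the widest errors at this depth.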
